A study of Mus musculus with 56 samples.

Results

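The transcripts described here are those of the immunoglobulin chains, measured in mouse blood after injection of 90Sr. The members were the 135 array probes, of 39429 in all, whose description in the array files named an immunoglobulin heavy, kappa, lambda or light chain. Descriptions of binding proteins and of lambda-like genes were left out. The rule read these descriptions and no measured value, although earlier results of these data were known when it was set. By description and position, 77 probes belonged to the heavy chain, 56 to kappa and 1 to lambda, and 1 light chain probe could not be placed. In the heavy chain locus, 12 probes lay in the constant region and 61 in the variable region, and 4 had no position there. Of the kappa probes, 1 lay in the constant region, 50 in the variable region and 5 elsewhere. Of the 56, 19 were light chain probes counted as kappa by their position alone. Among these was AJ278076, which lay in the kappa locus although its description named an IGLV1 gene, a lambda name. The label of the set held for what the probes were named after, but not for all chains alike. Lambda rested on a single probe, named Iglv1, whose description gave the chain but no region of it. The 2 probes described as lambda constant region (Iglc2) were worded differently and were not members.

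An antibody is built from paired heavy and light chains, each with a variable region that binds antigen and a constant region that sets its class. B cells join variable gene segments to each other and transcribe them with a constant region, first mu and delta, and later, after class switching, gamma, epsilon or alpha. In blood, resting B cells carry IgM and IgD on their surface, whereas plasma cells secrete antibody and hold far more immunoglobulin mRNA per cell. In the mouse most light chains are kappa.

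Expression was measured in 56 C57BL/6 mice, 28 injected with 90Sr and 28 controls, on one-color arrays with 1 array per mouse. The mice were about 10 to 12 weeks old, weighed 25 to 30 g and had been quarantined for 14 days, and no other genotype or agent was part of the groups. 90Sr was given once into the tail vein as 200 kBq of chloride solution in 0.05 mL, with a trace of 85Sr, and controls received the saline vehicle. Blood was taken 4, 7, 9, 25 or 30 days after injection, from 4 mice per group at the first of these days and 6 at the others, and each day had controls of its own. 90Sr settles in bone and irradiates the marrow for as long as it stays there, so a later day also meant a larger accumulated dose, and time and dose cannot be told apart. RNA came from whole blood, in which fewer cells of a type and less RNA per cell cannot be told apart.

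The sequences below are the array probes that the main contrasts rest on, each of 60 bases, written 5′ to 3′ with their mm9 positions from the array files. The first 4 are shown because they stand for the mu, alpha, kappa and lambda chains in the results.

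Ighm, mu constant region, chr12:114659630-114659689, minus strand: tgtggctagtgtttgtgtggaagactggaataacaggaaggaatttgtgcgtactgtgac

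Igh-VJ558 at the alpha position, chr12:114496985-114497044, minus strand: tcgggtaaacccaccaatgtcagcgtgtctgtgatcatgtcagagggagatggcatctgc

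Igkc, kappa constant region, chr6:70676692-70676751, plus strand: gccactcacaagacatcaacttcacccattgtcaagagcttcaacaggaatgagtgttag

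Iglv1, lambda chain, chr16:19061905-19061964, minus strand: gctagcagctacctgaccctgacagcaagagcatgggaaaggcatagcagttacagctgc

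The second of these was named after a variable gene family (Igh-VJ558) in the array files, but its position lay beyond the epsilon constant gene. There the gene order of the mouse reference annotation (GRCm38.p6) runs from Ighe to Igha, so it is called the alpha position probe here, an identity that rests on position only. The next pair shows how alike variable segments are. Capitals mark the bases that differ between HQ015080 and U18577 when the probes are set against each other with a shift of 1 base, together with the end base that then has no partner.

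HQ015080, kappa variable region, chr6:70523164-70523223, plus strand: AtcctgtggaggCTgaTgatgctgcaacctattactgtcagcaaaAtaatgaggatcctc

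U18577, kappa variable region, chr6:70622312-70622371, plus strand: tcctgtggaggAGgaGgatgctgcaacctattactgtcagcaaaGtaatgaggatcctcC

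Across the members, 21 pairs of probes shared at least 50 of their 60 bases. These pairs held 28 members, 16 heavy and 12 kappa, and 0 pairs joined a heavy to a kappa probe. Such probes can catch each other's transcripts, so they are not separate measurements of separate genes. Where both probes of a pair were tested (18 pairs), their mean log2 changes over the 5 days differed by a median of 0.12 and by at most 0.66. The remaining pairs held a probe that was not tested. AF303833, well above background on 0 arrays, had 0.39 against -1.91 for JX120220 and -1.47 for AF303835. FM179586 had -1.39 against -0.74 for FN652764. The last 3 sequences belong to heavy variable transcripts whose values departed from those of most members.

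JX120343, first probe, chr12:116532287-116532346, minus strand: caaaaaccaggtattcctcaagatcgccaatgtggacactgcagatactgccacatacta

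JX120343, second probe, chr12:116532348-116532407, minus strand: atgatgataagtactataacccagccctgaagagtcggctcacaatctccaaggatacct

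JF690619, chr12:116293623-116293682, minus strand: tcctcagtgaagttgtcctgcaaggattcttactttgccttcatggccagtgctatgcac

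Levels are log2 processed signal minus the median of the array, so a value of 0 is the array's middle, and a change is the mean level in 90Sr mice minus that in the controls of the same day. A probe was called when limma gave an unadjusted p under 0.001 and the change was at least 2-fold. Adjusted p are Benjamini-Hochberg values from limma over all 17100 probes tested. Of the 135 members, 96 passed the filter on dim spots, and 91 of these also passed the filter on variation: 43 heavy, 46 kappa, 1 lambda and the unplaced light chain probe. The array medians were lower in 90Sr mice, at 2.87 to 4.22, than in controls, at 3.49 to 4.79 (log2 signal), and their part in the results was not tested. Slides held 4 arrays each. Day 4 controls and day 4 90Sr mice never shared a slide, which leaves slide and injection at day 4 confounded: they cannot be told apart. For every other day there was a shared slide with 2 arrays of either group, the source of the within-slide values below. All arrays of days 4, 9 and 25 had 1 scan date per day. At day 7, 90Sr replicates 2 to 5 were scanned on a date that held no control, and so were 90Sr replicates 3 to 6 at day 30. Scan date and injection were thus partly confounded at days 7 and 30.

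Most immunoglobulin transcripts past the filters were lower in the blood of 90Sr mice at every day. Of the 91 tested probes, 59, 60, 56, 62 and 54 were called lower in order of day, against 22.8%, 16.3%, 17.8%, 26.6% and 21.4% of all tested probes. Their median log2 change was -1.34, -1.56, -1.48, -1.77 and -1.49 in order of day, where the median of all tested probes was 0.01, 0.03, -0.18, 0.05 and -0.06. Only 1, 0, 1, 1 and 3 members were called higher, against 2.61%, 3.35%, 5.73%, 6.96% and 18.5% of all probes. Every 90Sr mouse lay below every control mouse for 70, 64, 58, 65 and 44 of the 91, against 36.2%, 27.5%, 23.3%, 30.7% and 16.9% of all probes. The filter on variation favors probes that differ between groups, among members and other probes alike, and with no filters 65, 69, 62, 70 and 59 of all 135 members were called lower. A fit with slide as a fixed block, in which the shared slide alone carries the change, called 50, 32, 3 and 8 members at days 7, 9, 25 and 30, all lower, and 66, 60, 57 and 61 members differed by at least 2-fold within those slides (65, 56, 55 and 61 of them lower). With scan date as a fixed block, 24 were called at day 30. With arrays centred on the 75th percentile, 32 members were called lower and 5 higher at day 4. For the counts with no filters, with blocks, within slides and with this centring, the shares over all probes were not computed. These counts therefore do not show whether members exceeded other probes there. The 2-fold counts within slides also rest on 2 mice per group and on no test.

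Of the 91, 44 were called lower at all 5 days, against 8.08% of all probes, and 22 were called lower at no day, where 35.0% of all probes were called lower at 1 or more days. The kappa chain made up most of the first set, with 32 of its 46 tested probes called lower at all 5 days and 4 at none. Of the 43 heavy probes, 11 were called lower at all 5 days and 18 at none. By day, 39, 41, 39, 40 and 34 kappa probes and 19, 18, 15, 21 and 19 heavy probes were called lower. At each day more of the kappa than of the heavy probes were thus called lower, and the difference between the chains was not tested. Calls also went with brightness. Of 64 tested members well above background on every control array, 50, 50, 48, 53 and 46 were called lower in order of day. Of the 27 other tested members it was 9, 10, 8, 9 and 8. This split itself reads the control arrays, and the part of brightness in the difference between the chains was not tested.

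Among the 8 tested heavy constant region probes, mu was the one called, at all 5 days. Without the fold limit, 5 of the 8 had an adjusted p under 0.05 at day 4. Ighm is the chain of IgM, the class that resting B cells carry first. At day 4 the control mice had Ighm levels of 6.45, 6.89, 7.18 and 6.80, and the 90Sr mice 4.97, 4.59, 5.22 and 4.63. Every 90Sr mouse was below every control, by more than 1 log2 unit. The change was -1.98 ± 0.21 (SE), 3.93-fold lower, with an adjusted p of 0.00018.

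The gap in Ighm was present at all later days. At day 7 the controls ran from 6.88 to 7.02 around a median of 6.96, and the 90Sr mice from 3.83 to 5.80 around 4.98. At day 9 the controls ran from 6.41 to 7.01 (median 6.49) and the 90Sr mice from 3.40 to 5.44 (median 4.30). The 90Sr mice were the more spread group at both days (SD 0.69 against 0.05 and 0.25), and the groups did not overlap. At day 25 Ighm ran from 6.66 to 7.44 in controls (median 7.00) and from 3.59 to 5.91 in 90Sr mice (median 4.69). At day 30 it ran from 5.26 to 7.03 in controls (median 6.21) and from 3.69 to 4.60 in 90Sr mice (median 4.15). At day 30 the control group itself reached lower than at any other day, through replicates 1 and 4 at 5.26 and 5.39, but it stayed above all 90Sr mice. The changes were -1.96, -2.17, -2.34 and -1.95 at days 7 to 30 (3.9-, 4.51-, 5.07- and 3.87-fold lower; SE 0.26, 0.29, 0.34 and 0.30), with adjusted p of 0.000156, 7.68e-05, 0.000151 and 0.000115. Within the slide that held both groups the Ighm change was -2.54, -2.03, -1.56 and -1.81, and with slide as a fixed block the call was lost at days 25 and 30.

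The alpha position probe took another course. IgA is the main class of mucosal antibody, and its transcripts in blood come from cells that have switched class. At day 4 its level was 6.59, 6.74, 6.78 and 7.27 in the 4 control mice (in rising order of level) and 6.33, 6.01, 5.78 and 6.65 in the 90Sr mice. The groups overlapped through the highest 90Sr mouse. At days 7, 9, 25 and 30 the medians were 6.59, 6.18, 6.85 and 6.77 in controls and 6.38, 6.36, 6.68 and 6.53 in 90Sr mice, and the groups overlapped at each of these days. The changes were -0.65, -0.25, 0.14, -0.49 and -0.26 in order of day (SE 0.23, 0.21, 0.29, 0.32 and 0.37; adjusted p 0.033, 0.317, 0.731, 0.178 and 0.541), and none was called. Its within-slide changes were -0.41, -0.48, -0.33 and -0.30 at days 7 to 30, all lower in 90Sr mice and none as large as those of Ighm.

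A second probe close by in the same position gave similar values. Its changes were -0.79, -0.27, 0.10, -0.50 and -0.34 (adjusted p 0.0258, 0.312, 0.815, 0.171 and 0.383). The groups did not overlap for it at day 4, where controls had 6.09, 6.13, 6.25 and 7.03 in rising order and 90Sr mice 5.76, 5.36, 5.17 and 6.02. Another, dimmer probe of the position changed by -0.39, -0.44, 0.30, -0.29 and 0.67. No probe of the alpha position was called at any day. The sign of these small changes depended on how arrays were scaled: centring on the 75th percentile gave the first probe changes of -0.17, 0.10, 0.53, -0.01 and -0.07, and centring on spike-in probes gave -1.18, -2.17, -1.15, -1.0 and -0.77, with calls at days 4 and 7.

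Since both probes sit on the same array, the difference between the alpha position and Ighm within each mouse does not depend on how arrays are centred. It gives no ratio of transcript numbers, because probes differ in brightness, and only its change between groups is read. In controls the difference was 0.02 ± 0.37 (SD, n = 4) at day 4, then -0.23 ± 0.37, -0.33 ± 0.48, -0.12 ± 0.19 and 0.72 ± 1.0 (n = 6) at the other days in turn. The 90Sr mice had 1.34 ± 0.60, 1.48 ± 0.67, 1.98 ± 0.52, 1.73 ± 1.06 and 2.41 ± 0.66. All 90Sr mice were above all controls at days 4, 7, 9 and 25, and the groups overlapped at day 30, where 1 or more controls reached up to 1.87.

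The shift in this difference was 1.32, 1.71, 2.31, 1.85 and 1.70 log2 units in order of day. Exact two-sided permutation tests gave p of 0.0286, 0.00216, 0.00216, 0.00216 and 0.00433, and 0.0519, 0.00618, 0.00618, 0.00618 and 0.00962 after Benjamini-Hochberg adjustment over the 20 within-mouse comparisons made. The smallest p the design allowed was 0.0286 with 4 mice per group and 0.00216 with 6. Against Igkc in place of Ighm, the alpha position shifted by 1.20, 1.63, 2.39, 1.83 and 1.81, with adjusted p of 0.0879 at day 4 and 0.00618 at each later day (exact permutation test). The permutations take mice as exchangeable between slides, which the later days did not fully share. Within shared slides, with 2 mice per group, alpha minus Ighm shifted by 2.14, 1.55, 1.23 and 1.5 and alpha minus Igkc by 1.97, 1.57, 1.18 and 1.71 at days 7 to 30, with no overlap each time. These probe pairs were chosen after their values were seen.

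The gamma and epsilon constant probes were dim and none was called. These classes are made after switching, and IgE is the rarest of them in serum. The gamma 2C probe (ENSMUST00000103416) was well above background on only 4 of 56 arrays and the epsilon probe (ENSMUST00000137336) on 10. Their changes were 0.75, 0.48, 0.18, 0.97 and 0.75, and 0.86, 0.60, 0.93, 1.84 and -0.06, and with so few arrays well above background no fold is read from them. The pair of IgG2a cDNA probes was somewhat brighter. BC019489 was well above background on 44 arrays and changed by -0.30, -0.01, -0.17, -0.88 and -0.28. AK007918, on 35 arrays, changed by 0.08, 0.43, 0.39, -1.35 and -0.55. The day 25 value of AK007918 came from 1 control array with a level of 8.08, a spot that the scanner software marked as non-uniform. The gamma 1 and gamma 3 probes did not pass the filters and were well above background on 0 to 3 arrays each. Neither did a further gamma chain probe (ENSMUST00000103418, on 32 arrays, 22 control and 10 90Sr). A probe named after the gamma chain (Ighg) but placed in the variable region did not pass them either. It was well above background on 20 of 28 control arrays and 0 of 28 90Sr arrays, and it was not tested. The IgG2a, gamma 1, gamma 3, Ighg and further gamma probes and the dimmer alpha position probe fall outside the rule for named probes and were picked after their values were seen.

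The variable region of the heavy chain was lower in part. Of its 34 tested probes, 18, 17, 14, 20 and 18 were called lower, with median changes of -1.19, -1.20, -0.99, -1.31 and -1.36. These segments are shared by all heavy chain classes, so a variable probe does not tell which class its transcripts had. Per mouse, the median level over the 47 heavy probes past the filter on dim spots was 1.57 ± 0.09 in day 4 controls. It was 0.21 ± 0.01 in the 90Sr mice of that day (SD, n = 4). At day 30 it was 1.51 ± 0.26 in controls and 0.11 ± 0.17 in 90Sr mice (n = 6).

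In the kappa chain, the constant region probe and most variable region probes were called lower. The kappa constant region gene, Igkc, is part of every kappa light chain whatever its variable segment. At day 4 its level was 9.49, 9.50, 9.57 and 9.00 in controls and 8.0, 7.00, 7.66 and 7.49 in 90Sr mice, so the lowest control was 1 log2 unit above the highest 90Sr mouse. At day 7 controls ran from 9.39 to 9.97 (median 9.68) and 90Sr mice from 6.43 to 8.43 (median 7.88). At day 9 they ran from 9.07 to 9.66 (median 9.35) and from 6.31 to 8.05 (median 7.03). One 90Sr mouse at day 7, replicate 6, was far below the others of its group.

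At day 25 the Igkc level ran from 9.35 to 9.84 in controls (median 9.50) and from 6.35 to 8.51 in 90Sr mice (median 6.96). At day 30 it ran from 8.06 to 9.45 (median 9.07) and from 6.04 to 7.50 (median 6.92). The groups did not overlap at any of the 5 days. The changes were -1.86, -1.88, -2.25, -2.32 and -2.07 (3.62- to 4.99-fold lower; SE 0.23, 0.28, 0.27, 0.34 and 0.29), with adjusted p of 0.000252, 0.000204, 4.4e-05, 0.00016 and 7.9e-05. Within slides the change was -2.38, -2.05, -1.5 and -2.02 at days 7 to 30, and with slide as a fixed block the day 25 call was lost.

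Of the 42 tested kappa variable probes, 36, 38, 36, 37 and 31 were called lower, with median changes of -1.56, -1.83, -1.90, -2.13 and -1.80. Single probes ranged from -2.31 to -0.27 at day 4 and from -2.79 to 0.16 at day 30. The brightest of them were alike. The first probe of ENSMUST00000101325, described as kappa variable 4-71, had levels of 5.37, 5.38, 5.36 and 5.26 in day 4 controls and 4.2, 3.54, 4.28 and 4.25 in the 90Sr mice, and its groups did not overlap at any day. Its changes were -1.27, -1.59, -1.90, -1.95 and -1.44. Its second probe changed by -1.54, -1.85, -2.09, -2.23 and -2.02, AB663493 by -1.83, -1.92, -2.17, -2.42 and -1.97, and ENSMUST00000177795 by -1.71, -1.90, -2.25, -2.26 and -2.05. All were called at all 5 days with no overlap between groups.

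The kappa probes with the lowest mean changes over the 5 days were Z25442, U29575, ENSMUST00000103331 (kappa variable 19-93) and U30234, at -2.48, -2.43, -2.40 and -2.38. All 4 were called at all 5 days. They were dimmer, and in 90Sr mice at day 9 none of the 4 was well above background on any array. The fold there is only bounded, at least 2.42-, 2.9-, 3.21- and 1.7-fold lower in the same order. At day 30 the bound was at least 1.79-fold for Z25442, 2.65-fold for U29575 and 3.23-fold for ENSMUST00000103331. A bound sets the mean of the brighter group, with its signals as measured, against the dim group. On each dim array the probe's own signal was taken or, where that was lower, the dimmest signal that counts as well above background there. The like pair shown above moved together: HQ015080 changed by -1.84, -1.82, -2.17, -2.47 and -1.83, and U18577 by -1.72, -1.88, -2.24, -2.38 and -2.17.

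The spread among 90Sr mice was larger than among controls for the kappa chain as a whole. The median level over the 47 kappa probes past the filter on dim spots was 3.04 ± 0.17 in day 7 controls and 1.08 ± 0.62 in the 90Sr mice (SD, n = 6). The same groups had 2.57 ± 0.16 and 0.52 ± 0.56 at day 9, and 2.75 ± 0.28 and 0.73 ± 0.64 at day 25. At day 30 the controls were the more spread group, with 2.07 ± 0.64 against 0.28 ± 0.39. Control replicates 1 and 4 of day 30 had kappa medians of 1.15 and 1.52 where the other 4 controls had 2.34, 2.84, 2.55 and 2.05. Without these 2 control mice, 62 members were called at day 30 (59 lower and 3 higher) in place of 57. The array medians of the 2 were 3.81 and 3.49, below the 4.02 to 4.51 of the other day 30 controls, and the part of this in their levels was not tested.

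The lambda chain, the rarer light chain of the mouse, was represented by Iglv1. Its level at day 4 was 6.56, 6.78, 7.02 and 6.50 in controls and 4.39, 3.84, 4.59 and 4.36 in 90Sr mice. The highest 90Sr mouse was nearly 2 log2 units below the lowest control. At days 7, 9, 25 and 30 the medians were 7.18, 6.47, 6.83 and 6.65 in controls and 5.47, 3.91, 4.32 and 4.06 in 90Sr mice, with no overlap at any day. The changes were -2.42, -1.98, -2.52, -2.48 and -2.39 (5.35-, 3.94-, 5.75-, 5.56- and 5.26-fold lower; SE 0.20, 0.29, 0.22, 0.30 and 0.33), with adjusted p of 0.00017, 0.000191, 7e-06, 0.000133 and 7.17e-05. Within slides it changed by -2.30, -2.27, -1.64 and -1.98 at days 7 to 30, and its calls at days 25 and 30 were lost with slide as a fixed block.

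Within mice, Iglv1 minus Igkc was shifted by -0.56 at day 4, where the groups did not overlap (exact permutation p = 0.0286, adjusted 0.0519). At days 7, 9, 25 and 30 the shift was -0.10, -0.27, -0.16 and -0.32 with overlapping groups (exact permutation p = 0.379, 0.13, 0.197 and 0.175). A difference between the light chains was therefore not resolved. Outside the members, a pair of Iglc2 probes, described as lambda constant region, was also lower, with changes of -2.53, -1.83, -2.47, -2.60 and -2.92 for the first. Which region the Iglv1 probe reads was not tested.

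IgD, the other surface class of resting B cells, had no probe among the members, and its membrane form was measured by 1 probe outside the wording of the rule. That probe changed by -1.66, -1.17, -1.67, -1.82 and -1.96, called lower at all 5 days with no overlap. Against Ighm within mice it was shifted by 0.31, 0.80, 0.50, 0.53 and 0.00 log2 units (exact permutation test, adjusted p 0.254, 0.00962, 0.173, 0.0649 and 0.994). The shift passed an adjusted p of 0.05 at day 7, and whether it differed between days was not tested. Within shared slides it was 1.28, 0.72, 0.47 and -0.37 at days 7 to 30.

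A few variable transcripts were called higher in 90Sr mice. JF690619, a heavy chain V(D)J transcript, had levels of 3.14, 2.70, 2.56 and 2.67 in day 4 controls and 3.79, 3.57, 3.90 and 3.81 in 90Sr mice, all above the controls. Its changes were 1.0, 0.83, -0.31, 0.98 and 1.77, and it was called higher at days 4 and 30 (adjusted p 0.000984 and 0.000405). At day 9 the 4 controls on a slide of their own had 4.23, 4.01, 4.25 and 4.24, and the 2 controls that shared a slide with 90Sr mice had 3.03 and 2.63. At day 30 the 90Sr mice of a slide of their own had 5.19, 4.85, 4.59 and 5.09, and the 2 on the shared slide 3.36 and 3.88. Levels of this probe thus differed by slide within a group. Within the shared slides its change was 0.96, 0.57, 0.66 and 0.77 at days 7 to 30, higher in 90Sr mice each time and under the 2-fold limit, and the day 30 call was lost with slide as a fixed block. The day 4 call was lost when any of 6 of the 8 arrays was left out, and in all 6 of these fits the change was under 2-fold while the unadjusted p stayed under 0.001. With spike-in centring its change was 0.47, -1.09, -1.60, 0.47 and 1.26, with a call in the lower direction at day 9.

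LOC101055692, predicted to encode a kappa variable region, was called higher at days 25 and 30 through a probe placed on chromosome 16. At day 25 its levels ran from 0.70 to 2.02 in controls (median 1.38) and from 2.01 to 3.22 in 90Sr mice (median 2.60), and at day 30 from 0.59 to 1.92 (median 1.58) and from 1.97 to 3.42 (median 3.04). The groups met at day 25 and were just apart at day 30. Its changes were 0.58, 0.65, -0.03, 1.28 and 1.48 (adjusted p 0.00061 at day 25 and 0.000492 at day 30), and within slides 0.91, 0.51, 1.06 and 0.48 at days 7 to 30. Both calls were lost with slide as a fixed block, with a reference array and with spike-in centring. The second probe of the same predicted gene, placed on chromosome 17, did not pass the filters and was well above background on 1 of 28 90Sr arrays. It was at least 1.7-fold lower in 90Sr mice at day 4 and at least 1.03-fold lower at day 25, and no fold is given for the other days.

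JX120338, a heavy chain clone, was called higher at day 30 only, with a change of 1.17 (adjusted p 0.00161) from overlapping groups, controls from 3.62 to 4.71 and 90Sr mice from 4.33 to 5.79. Its within-slide change was 0.45, and the call was lost with slide as a random block and when any of 9 of the 12 arrays was left out. X66649, a heavy variable transcript, was called higher at day 9, with levels of -1.54, -0.68, -0.97, -1.47, -1.84 and -0.33 in controls and 0.64, -0.31, 0.52, 0.76, 3.45 and 0.45 in 90Sr mice. Over all days it was well above background on 0 control arrays and 2 90Sr arrays, so no fold is read from it. Its adjusted p was 0.00258 (limma), and 1 90Sr mouse at 3.45 was far from the rest. Within its shared slide the change was 1.25, and the call was lost when any of 7 of the 12 arrays was left out. JX120314, another heavy chain clone with a high mean change, was well above background on at most 1 array of any group and was not called.

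Changes differed between days for few members. The interaction of injection and day passed an adjusted p of 0.05 (limma F test) for 8 of the 91, 5 heavy and 3 kappa, against 20.9% of all tested probes. With slide as a random block 1 member passed, and with scan date as a fixed block 3. The smallest adjusted p belonged to the first probe of JX120343, at 3.8e-05. It changed by -0.77, -0.86, -0.34, -0.45 and -2.04, and at day 30 the controls ran from 0.58 to 1.13 (median 0.83) and the 90Sr mice from -1.77 to -0.63 (median -1.25), with no overlap. The day 30 change had an adjusted p of 2.3e-05 and a bound of at least 1.23-fold, since no 90Sr array was well above background, and it was -2.17 within the slide. The second probe of JX120343, 61 bases away on the same transcript, changed by 0.14, -0.22, -0.13, 0.17 and 0.38 and was well above background on all arrays. Probes of the same transcript thus gave different values.

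AF303835, a heavy variable transcript, changed by -1.17, -1.78, -0.69, -1.82 and -1.92 (interaction adjusted p 0.018) and was called at days 7, 25 and 30. HQ446585, a light chain variable transcript, changed by -0.41, -0.43, -0.91, -0.81 and 0.16 (adjusted p 0.0058) and was not called. JF690619 and LOC101055692 also differed between days, with adjusted p of 0.0025 and 0.0088, and X66649 with 0.04. For Ighm, Igkc and Iglv1 the interaction had adjusted p of 0.914, 0.859 and 0.795. Between the 5 groups of control mice, 17 of the 91 members differed (adjusted p under 0.05, limma F test), 4 heavy and 13 kappa, against 46.0% of all probes, and 5 did so with slide as a random block. Without replicate 1 of the day 30 controls 6 differed, and without their replicate 3 it was 31. LOC101055692, JF690619 and JX120338 had the smallest adjusted p there (1.06e-05, 0.000517 and 0.000955), with control means spanning 1.53, 1.5 and 1.11 log2 units between days.

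The partners of immunoglobulin on and in B cells were lower as well. All 14 tested genes of the B cell surface list were called lower at days 4, 7, 25 and 30, and 13 at day 9. Cd79a and Cd79b, the signaling chains of the B cell receptor, changed by -2.05, -1.77, -2.30, -2.36 and -2.31, and by -2.32, -1.89, -2.42, -2.67 and -3.03. Ms4a1, which encodes CD20, changed by -2.41, -1.71, -2.31, -2.52 and -2.71. The summed level of the list's 16 genes was 10.3 to 11.54 over the control mice and 8.49 to 10.4 over the 90Sr mice. Their part in the immunoglobulin changes was not tested.

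Of the 11 tested transcription factors and coactivators that act on immunoglobulin genes, 9, 8, 8, 9 and 9 were called lower. Ebf1, which sets B cell identity, changed by -3.13, -2.27, -3.20, -2.60 and -3.11. Irf4, Spib, Pou2af1, Pou2f2, Irf8, Tcf3 and Tcf4 were also called lower at all 5 days. Pax5, another B cell factor, was not called at any day, with changes of -0.24, -0.22, -0.46, 0.64 and 1.13; it falls outside the rule for named genes and was picked after its values were seen. Of the V(D)J recombination, class switch and surrogate light chain genes, 3 were tested and Vpreb3 alone was called lower, with changes of -2.23, -1.5, -2.04, -2.15 and -2.39. Rag1, Rag2, Vpreb1, Vpreb2 and Igll1 did not pass the filters.

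Genes of plasma cells and of antibody assembly were mixed. Of 13 tested, 5, 6, 5, 6 and 5 were called lower. Mzb1, an endoplasmic reticulum protein of B cells that helps to assemble IgM, changed by -1.75, -1.42, -1.79, -1.90 and -1.74. Tnfrsf13b, the receptor TACI of B cells, changed by -2.47, -1.57, -2.22, -2.61 and -2.58. Igj, the joining chain that links units of secreted IgM and IgA, was not called, with changes of -0.30, -0.08, 0.09, -0.24 and 0.00 (adjusted p 0.337 to 0.995), and neither was Xbp1, a factor of antibody secreting cells, with -0.71, -0.54, -0.65, -0.80 and -0.77. Both were picked after their values were seen. The summed level of the list was 7.78 to 9.15 over controls and 7.32 to 8.47 over 90Sr mice.

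Of the 8 tested Fc receptors and transporters of immunoglobulin, 4, 3, 4, 4 and 3 were called lower. Fcgr2b, the inhibitory receptor for IgG on B and myeloid cells, changed by -2.16, -1.98, -2.27, -1.96 and -2.26, and Fcgrt, which protects IgG from breakdown, by -1.57, -1.53, -1.80, -1.88 and -1.72. Of the markers of other blood cells, 2, 0, 0, 2 and 2 of 9 T cell genes and 0, 0, 1, 0 and 0 of 7 NK cell genes were called lower by limma. So were 3, 4, 3, 3 and 3 of 6 monocyte genes and 2, 1, 0, 2 and 0 of 9 neutrophil genes. At day 30, 1 T cell gene was called higher. Among all tested probes, 22.8%, 16.3%, 17.8%, 26.6% and 21.4% were called lower and 2.61%, 3.35%, 5.73%, 6.96% and 18.5% higher. Of 7 erythroid genes, 0, 1, 5, 0 and 5 were called higher, and their summed level was 14.3 to 15.5 over controls and 15.1 to 16.2 over 90Sr mice. None of the 7 platelet genes passed the filter on variation. The part of the other cell types in the immunoglobulin values was not tested.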

How the data were processed

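RNA from the whole blood of 56 mice, depleted of globin transcripts, was hybridized by the authors to one-color Agilent mouse arrays (44397 spots, 43020 of them not controls), 4 arrays to a slide on 14 slides. The authors deposited the processed signal of each spot as an intensity on a linear scale, which Feature Extraction (11.5.1.1 in the file header, 10.7 in the submitters' notes) wrote after background correction with no scaling between arrays. Flags for spots not above background, well above background, saturated or non-uniform were deposited beside it. The authors also deposited processed log2 values of the same arrays, used here as an alternative. Precision is limited by how many arrays there were.

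Intensities were put on the log2 scale, spots of a probe were averaged, and the array median over spots that are not controls was subtracted. A probe was kept when fewer than 25% of arrays had it marked as non-uniform or not above background (23324 of 39429) and when at least 20% of arrays lay 1.5-fold or more from its median (17100). Days were fitted separately (limma 3.58.1, under R 4.3.3; slide as a random block used statmod 1.5.0). A call needed an unadjusted p under 0.001 and a change of 2-fold, as in the methods. Effects that differ between days, and differences among the 5 control groups, were tested by F tests over 4 contrasts at an adjusted p under 0.05, with all 10 groups in the fit. Within-mouse differences used two-sided exact permutation tests. The fit was tested on simulated data.

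The named probes were those past the filter on dim spots whose description or name states a constant region, the 5 brightest of each chain, the 5 with the highest and the 5 with the lowest mean change, up to 5 with the smallest interaction p, and any called higher, 23 in all. From the gene lists, genes called at all 5 days were named, at most 6 per list by size, and any called against its list. For the transcription factors more were named than this limit, and from the lists of other blood cells no gene was named. Each listed gene was represented by its brightest probe, taken from those past the filter on dim spots where it had any. The members, lists and rules were chosen with earlier results of these data known. Probe positions (mm9) were read from the array files, and the gene order at the heavy chain locus from RefSeq on GRCm38.p6.

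The main fits took the mice as unpaired. Of 28 pairs with the same day and replicate number, 8 deviated together with a correlation over 0.1 (range -0.26 to 0.33). At day 4 the correlations were 0.26, 0.06, 0.14 and 0.19, and in every pair the mouse of the same number was the best match. At the later days this held for some pairs and not for most. Whether replicate numbers paired the mice at day 4 was not tested. The alternatives were other scalings, normexp background correction, other filters and thresholds, the authors' log2 values, a single fit of all groups, slide, scan date or replicate number as a block, and each array left out in turn.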

Additional observations from a re-analysis of the deposited data

Results flagged for a closer look

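In 22 of 250 groups of 4 or 6 mice tested over the named probes and chain medians, 1 mouse stood apart from the rest of its group by Dixon's test, a criterion that chance meets in about 1 group in 20. Values are array-centered log2 levels.

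Of the day 4 mice, control 4 had a level of 9.00 for ENSMUST00000103410, the kappa constant region, against 9.49 to 9.57 in the other controls. It also stood apart at 7.03 for Igh-VJ558 (others 6.09 to 6.25), at 5.26 for ENSMUST00000101325 (others 5.36 to 5.38), at 2.17 for ENSMUST00000103331 (others 2.87 to 3.01) and at 1.44 for U30234 (others 1.93 to 2.01). Its values were thus below the other controls for 4 of these probes and above them for Igh-VJ558. In 90Sr mouse 2 of day 4, both probes of ENSMUST00000101325 were low, at 3.54 (others 4.2 to 4.28) and 2.08 (others 3.05 to 3.12), as was ENSMUST00000177795 at 1.75 (others 2.77 to 2.85). Its median over the heavy chain probes was 0.20, against 0.22 in each of the other 3 mice, a gap of little size.

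The 90Sr mouse 6 of day 7 was low for 3 light chain probes, with 6.43 for ENSMUST00000103410 (others 7.71 to 8.43), 1.48 for ENSMUST00000177795 (others 2.58 to 3.18) and 3.76 for Iglv1 (others 5.05 to 5.78). Control 6 of day 7 was high for HQ446585, at 3.76 (others 3.18 to 3.31).

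Day 9 held 6 such values. Control 5 had 5.99 for JX120338 (others 4.98 to 5.12), and control 6 had 5.55 for ENSMUST00000101325 (others 4.99 to 5.17). The 90Sr mouse 2 had -0.84 for ENSMUST00000103416 (others 0.11 to 0.66) and 0.25 for Z25442 (others -1.46 to -0.84). In 90Sr mouse 4 U30234 was at 0.52 (others -1.34 to -1.0), and in 90Sr mouse 5 X66649 was at 3.45 (others -0.31 to 0.76). At day 25, 90Sr mouse 2 had 1.41 for U30234 (others -1.75 to -0.89) and control 1 had 1.06 for JX120343 (others 0.76 to 0.87). Control 2 of day 30 had -3.20 for JX120314 (others -1.49 to -0.74).

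The change with 90Sr differed between days for 6 named probes by limma's F test over all groups. The adjusted p was 3.8e-05 for JX120343, 0.0025 for JF690619, 0.0058 for HQ446585, 0.0088 for LOC101055692, 0.018 for AF303835 and 0.04 for X66649.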

How the results depend on the processing

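The medians of both chains were negative at every day under every alternative run. The main scaling left the median change of all tested probes at 0.01, 0.03, -0.18, 0.05 and -0.06 by day. Other scalings moved it to 0.71, 0.59, 0.48, 0.78 and 0.56 (75th percentile), 0.66, 0.54, 0.43, 0.72 and 0.47 (median of detected spots), 0.20, 0.17, -0.03, 0.19 and 0.05 (quantile), -0.51, -0.53, -0.71, -0.84 and -0.70 (reference array), -0.56, -1.94, -1.36, -0.65 and -0.43 (spike-ins) and -0.93, -0.79, -0.97, -1.08 and -0.88 (bounded normexp), and the authors' values had it at -0.08, -0.07, -0.27, 0.09 and -0.39. Normexp as planned was not run, because on 21 of 56 arrays the corrected median lay above the uncorrected one. Bounding it, leaving out non-uniform spots and leaving out day 30 controls 1 and 4 were chosen after seeing the data.

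Day 4 calls fell to 37 (32 lower, 5 higher, of 87 probes) under the 75th percentile and 39 of 85 under the detected median. With slide as a fixed block, 32 probes were called at day 9, 3 at day 25 and 8 at day 30, all lower, and with scan date 24 at day 30. Calls by day were 31, 28, 30, 32 and 29 of 41 probes when 75% of arrays had to be well above background, and 23, 26, 23, 29 and 18 of 34 under bounded normexp. Spike-in scaling called 90 of 96 probes at day 7. The spike-in level there was 7.43 to 7.85 (log2) on 90Sr replicates 2 to 5 and 5.55 to 6.02 on the other day 7 arrays. Except for spike-in scaling, these fits had fewer probes or let fewer arrays carry the change. The causes of the changes in number were not tested, and shares over all probes were not computed for these fits.

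The heavy chain median moved to -0.50, -0.42, -0.43 and -0.64 (days 4 to 25) under the 75th percentile, -0.54, -0.50, -0.46 and -0.79 under the detected median, -1.10, -1.26, -1.49 and -1.31 (days 4, 9, 25 and 30) with the reference array, -1.33, -2.65, -2.07, -1.47 and -1.33 with spike-ins, and -0.65, -0.31, -0.15, -0.45 and -0.65 with no filters. It was -1.11 (bounded normexp) and -0.91 (well above background) at day 4, -0.90 (quantile), -0.84 (authors' values), -0.77 (slide block and within slide) and -1.06 (non-uniform spots left out) at day 25, and -1.23 (authors' values) at day 30. The kappa median at day 4 was -1.11, -1.15 and -1.27 under the 75th percentile, detected median and quantile. It was -2.11, -3.76, -3.19 and -2.70 (days 4 to 25) with spike-ins, -1.10, -1.29, -1.28, -1.33 and -1.0 under bounded normexp, -2.32 at day 7 with scan date and -1.35 at day 25 with slide as a block or within the slide.

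The 8 probes whose change differed between days became 5 with the detected median, reference array or quantile scaling, 47 with spike-ins, 0 with bounded normexp by limma, 4 with the authors' values or the filter on spots well above background, 14 with no filters, 0 with slide fixed, 1 with slide random and 3 with scan date. The 17 that differed among controls became 6 (75th percentile), 7 (detected median, reference array, or without day 30 controls 1 and 4), 4 (quantile), 96 (spike-ins), 5 (authors' values, slide random) and 38 (no filters). With spike-ins JX120338, JX120314 and X66649 reversed at day 7, to -1.59, -1.69 and -1.56.

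Leaving out 1 array gave 49 to 59, 58 to 62, 54 to 59, 62 to 67 and 50 to 60 calls by day, and 6 to 9 probes differing between days. The controls gave 6 (without day 30 control 1) to 31 (without day 30 control 3), and 11 without day 7 control 6 or day 30 control 4. The heavy chain median ran from -1.0 to -0.81, -0.92 to -0.78, -0.93 to -0.80, -1.28 to -1.02 and -1.05 to -0.86, and the kappa median from -1.71 to -1.44, -1.99 to -1.67, -2.08 to -1.83, -2.36 to -2.01 and -2.03 to -1.62. Over all such fits 1259 of 1288 named-probe results kept direction and side of the threshold, 22 lost the call and 7 gained it. With the replicate number as a block, calls were 57, 57, 55, 63 and 52 by day, and 114 of 115 named-probe results kept their call. Slide at day 4 and scan date in the test among controls could not be fitted. Scan date was not fitted at days 4, 9 and 25, which each had 1 scan date.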

Other observations

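The tested Fc receptor and transporter genes included Pigr, which carries IgA and IgM across epithelia. It was not called at any day, with changes of 0.02, 0.02, 0.23, 0.07 and -0.21, and it was picked after its values were seen. Dntt, which adds bases at V(D)J joints, changed by -0.13, -0.15, -0.34, -0.45 and -0.39 and was not called. Ung, which takes part in class switching, changed by -0.20, 0.27, 0.94, 0.68 and 1.1 and was not called. Both were also picked after their values were seen.

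S79427, a lambda variable transcript outside the wording of the rule, was called lower at all 5 days and picked after its values were seen. It was well above background on all 28 control arrays and on 9 of 28 90Sr arrays, 0 of them at day 9, where it was at least 4.03-fold lower. Among the 5096 values of the 91 tested members, 1 came from a spot marked non-uniform, the day 25 control value of AK007918, against 0.0228% of the values of all tested probes.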
